A study of Mus musculus with 6 samples.

Results

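The G1 cyclins, their partner kinases and the E2F factors E2F1 and E2F2 were followed in mouse leukaemic erythroid cells before and after the level of Spi1 was lowered. The members were the 10 rows of the count table with the symbols Ccnd1, Ccnd2, Ccnd3, Ccne1, Ccne2, Cdk2, Cdk4, Cdk6, E2f1 and E2f2, out of 25628 symbols in all, and each of the 10 was found. All 6 libraries came from leukaemic blasts of mouse bone marrow, labelled TgSpi1 and 722. These cells overexpress SPI1, the transcription factor also called PU.1, carry an shRNA against its gene Spi1 that doxycycline switches on, and grew with EPO. The 3 Dox_Untreated libraries had no doxycycline, and the 3 Dox_Treated libraries came from cells given it for 48 h. Since every library carries the shRNA, an action of doxycycline itself and of the shRNA cannot be told apart. The labels call the libraries biological replicates without saying what a replicate number stands for, so the p-values measure the spread between these cultures. All 6 carry the 1 label 722.

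The D-type cyclins are the part of the cell cycle engine that growth factor signals reach first. They bind the kinases CDK4 and CDK6, which phosphorylate the retinoblastoma proteins and so free the E2F factors to switch on genes of DNA synthesis. Among the genes that E2Fs switch on are the E-type cyclins, which bind CDK2 and carry the cell into S phase. In red cell precursors this machinery sets how many divisions a cell makes before it leaves the cycle: cyclin D3 is known for its part in the number of these divisions and E2F2 for its part in the exit from the cycle.

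Total counts lay between 78926663 and 101276319 per library. Spi1, the target of the shRNA, was checked first. Its level in CPM, which are counts scaled to library size, was 414.5, 353 and 329.6 in untreated replicates 1, 2 and 3. In doxycycline replicates 1, 2 and 3 it was 84.8, 80.4 and 62.1, and Spi1 fell by 2.27 on the log2 scale (SE 0.17, edgeR adjusted p = 0.0030). The erythroid label was matched by its markers, of which all 12 were in the table and tested: Gata1 stood at 274 ± 16.8 CPM and Tfrc at 2101 ± 376 CPM in untreated libraries (SD, n = 3). The 8 B, T and NK cell markers in the table and the 6 stromal and endothelial ones each had a mean under 1 CPM. In bulk RNA, fewer cells of a type and less RNA per cell cannot be told apart.

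The promoters of 7 members had an entry in the RefSeq table (GRCm38.p6), in 9 windows of 250 bases before the transcript start. Ccnd1, Ccnd2 and Ccne2 had none. Shown here are the stretches outside annotated exons for Ccne1 and Cdk6, whose levels changed within replicate pairs as described below, and for Cdk2, whose window held an E2F match. Capitals mark the letters of an E2F motif or of a GC box (GGGCGG), on either strand. The E2F motifs searched were TTCGCGC and its relative TTGGCGC, together with TTCCCGC and its relative TTGCCGC.
Ccne1 (chr7:38107535-38107740, minus strand): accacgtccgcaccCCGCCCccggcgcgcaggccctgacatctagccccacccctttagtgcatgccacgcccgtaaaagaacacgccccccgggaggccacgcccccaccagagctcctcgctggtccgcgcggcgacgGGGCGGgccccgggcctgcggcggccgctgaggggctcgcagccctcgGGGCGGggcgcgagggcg
Cdk6 (chr5:3343789-3343892, plus strand): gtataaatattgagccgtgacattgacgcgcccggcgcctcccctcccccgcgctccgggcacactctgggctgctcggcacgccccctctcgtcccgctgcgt
Cdk2 (chr10:128705052-128705179, minus strand): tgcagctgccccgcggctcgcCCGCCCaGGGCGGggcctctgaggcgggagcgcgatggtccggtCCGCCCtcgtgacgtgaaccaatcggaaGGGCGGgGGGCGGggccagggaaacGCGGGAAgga
Over the whole windows Ccne1 held 4 GC boxes and no E2F match, Cdk6 held neither, and Cdk2 held 5 GC boxes and 2 E2F matches, the nearer of which begins 10 bases before the start. The E2F letters were in 1 of the 9 windows of the members and in 7.89% of all 32851 windows in the table. The E2f1 window (chr2:154569427-154569676, minus strand) lay wholly within annotated exons, short of the gene's outer start at 154569892. The only Cdk6 window also lay inside its gene, which begins at 3341485. So the bases before the outermost annotated start of E2f1 and of Cdk6 were not searched. GC boxes were in 7 of the 9 and in 32.7% of all windows. The letters GAGGAA, a core of PU.1 sites, were in none of the 9 and in 23.3% of all windows. No E2F match overlapped a GC box in these 9 windows. The GC content was 76.0% in the Ccne1 window and 66.0% in that of Cdk6, against a median of 52.4% over all windows.

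Compared per length of the principal transcript, cyclin D3 and CDK4 were the leading cyclin and kinase mRNAs of the 10. With CPM divided by the length of the longest principal transcript in kilobases (GENCODE M21), Cdk4 stood at 228 ± 33.1 CPM per kb and Ccnd3 at 151 ± 38.7 CPM per kb in the untreated libraries (SD, n = 3). The lowest untreated value of Cdk4, 190.1, was above the highest of Ccnd3, 177. E2f2 (41.5 ± 3.602), Cdk2 (36.9 ± 2.59), Ccne2 (33.9 ± 5.32), Ccne1 (29.9 ± 8.30), E2f1 (23.9 ± 4.87) and Cdk6 (21.0 ± 5.63 CPM per kb) followed (SD, n = 3 each). Each of these 6 overlapped with its neighbour in this order. Genes farther apart in it could still be told apart: the lowest libraries of E2f2 (38.5), Cdk2 (33.9) and Ccne2 (29.1) lay above the highest of E2f1 (26.8) and Cdk6 (27.4 CPM per kb). Ccnd1 came far below at 1.137 ± 0.805 CPM per kb (SD, n = 3), with its highest library at 2.06.

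With doxycycline the order of the middle genes changed. Cdk4 (274 ± 47.1 CPM per kb) and Ccnd3 (167 ± 45.8) remained the top pair, and Ccne1 came next at 50.6 ± 16.7 CPM per kb, in place of rank 6 before (SD, n = 3 each). It overlapped with E2f2 (47.6 ± 8.52). Cdk2 (36.5 ± 1.20) now lay above every library of Ccne2 (27.3 ± 5.39), and Cdk6 was lowest of the 8 main members at 15.7 ± 4.44 CPM per kb (SD, n = 3 each). The places of Ccnd3, Cdk2 and Ccne1 depend on the length used. With the union of all its exons, 8775 bases in place of 2113, Ccnd3 stood at 36.4 ± 9.32 CPM per kb in untreated libraries (SD, n = 3) and overlapped with E2f2. Its mean was still the highest of the cyclins by this length, but it was not set apart from them. The lowest untreated Ccnd3 library was at 25.7 and the highest of Ccne2 at 34.1 CPM per kb. With doxycycline the lowest of Ccnd3 was at 29.3 and the highest of Ccne1 at 52.3 CPM per kb. Cdk2, with 6219 bases in place of 2240, moved from rank 4 to 8 in untreated libraries and from 5 to 7 with doxycycline. Its order with Ccne2 then reversed: with doxycycline the highest Cdk2 library was at 13.4 and the lowest of Ccne2 at 18.1 CPM per kb. Ccne1 moved from rank 5 to 4 with doxycycline by this length.

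**Figure D1:**
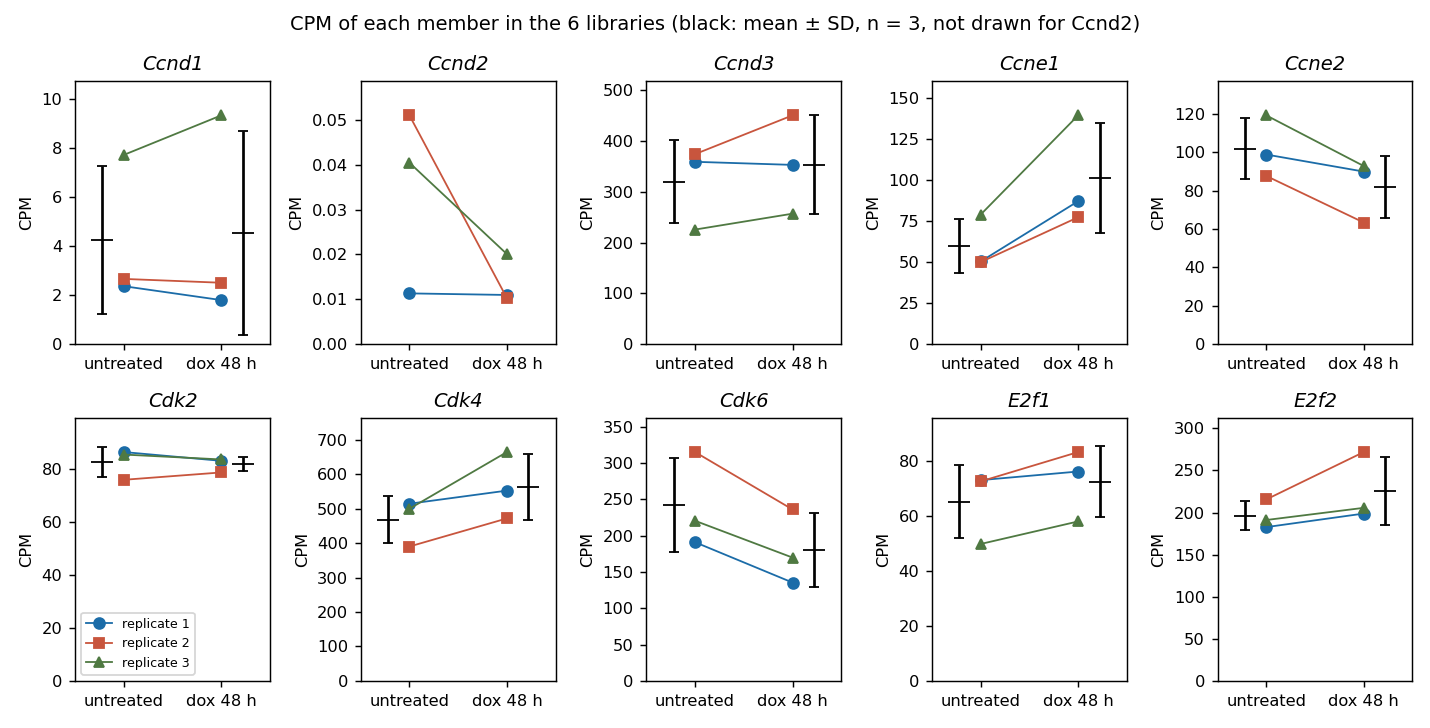
CPM (y axes, linear, from 0) of each of the 10 genes in untreated libraries and after 48 h of doxycycline. Lines join libraries with the same replicate number, and black marks give the mean and SD of 3 libraries, except for Ccnd2, where none are drawn. All 3 Ccne1 lines go up and all 3 Ccne2 and Cdk6 lines go down, while replicate 3 lies apart for Ccnd1 in both groups.

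Among the D cyclins, Ccnd3 made up nearly all of the level per kb, and its own level passed neither fit. It took between 98.1% and 99.6% of the summed level in untreated libraries and between 98.0% and 99.7% with doxycycline. Ccnd3 (chromosome 17, 47505051 to 47599691, plus strand, ENSMUSG00000034165.16; GRCm38 here and below) stood at 359, 374 and 226 CPM in untreated replicates 1, 2 and 3 and at 353, 451 and 257 CPM in doxycycline replicates 1, 2 and 3. The groups overlapped. The log2 fold change was 0.15 (SE 0.26, 95% interval -0.47 to 0.76, edgeR adjusted p = 0.87). With the replicate number as a block it was 0.14 (interval -0.06 to 0.35, edgeR adjusted p = 0.28). Its exons share 361 bases with Bysl on the other strand, which had at most 59.9% of its counts, and the pseudogene Ccnd3-ps had 31 to 84 counts.

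Ccnd1 (chromosome 7, 144929931 to 144939925, minus strand) encodes cyclin D1, the form best known from epithelial tumours. It stood at 2.37, 2.66 and 7.72 CPM in untreated replicates 1, 2 and 3 and at 1.80, 2.51 and 9.33 CPM with doxycycline. Replicate 3 was the high library in both groups, and the groups overlapped. The log2 fold change of 0.10 had an interval of -1.58 to 1.77 (SE 0.72, edgeR adjusted p = 0.97), so a change of any size within it could not be told from none. With the replicate block the value was -0.05, with an interval of -0.42 to 0.32. Exons of Ccnd1 share 1100 bases with those of LTO1 on the other strand, which had 973 to 1379 counts against 164 to 930 of Ccnd1. The kit used leaves the strand unmarked, so the split of reads between these genes is uncertain.

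Ccnd2 (chromosome 6, 127125162 to 127152193, minus strand) encodes cyclin D2, a target of cytokine signals in other blood cells. Its deposited counts were 1, 4 and 4 in the untreated libraries and 1, 1 and 2 with doxycycline. The smallest value in the table is 1, so every library is at or near that minimum, and no fold is given. It did not pass the filter on low counts and was not tested, which leaves 9 tested members.

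The E cyclins, which bind CDK2, went opposite ways within pairs. Cyclin E1 mRNA was higher and cyclin E2 mRNA lower with doxycycline in each of the 3 replicate pairs. Ccne1 (chromosome 7, 38097984 to 38107534, minus strand, ENSMUSG00000002068.16) stood at 50.4, 49.97 and 78.9 CPM in untreated replicates 1, 2 and 3 and at 87.0, 77.3 and 139 CPM with doxycycline. The groups overlapped in 1 place, where untreated replicate 3 was just above doxycycline replicate 2. The log2 fold change was 0.76 (SE 0.28, interval 0.10 to 1.42) and did not pass adjustment over all genes (edgeR adjusted p = 0.25). With the replicate number as a block Ccne1 rose by 0.75 on the log2 scale (SE 0.089, edgeR adjusted p = 2.2e-04). The pairs gave 0.79, 0.63 and 0.82, and the call held without any 1 pair (edgeR adjusted p between 1.2e-10 and 0.016). The log2 fold changes of these fits were 0.74, 0.81 and 0.71 without pairs 1, 2 and 3. A fit without a pair has fewer libraries to measure the spread, so a smaller p there is not stronger support.

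Ccne2 (chromosome 4, 11191351 to 11204779, plus strand, ENSMUSG00000028212.16) stood at 98.8, 87.6 and 119 CPM in untreated replicates 1, 2 and 3 and at 89.9, 63.4 and 92.8 CPM with doxycycline. The groups overlapped, and the log2 fold change of -0.31 did not pass (SE 0.20, interval -0.77 to 0.15, edgeR adjusted p = 0.54). With the block Ccne2 fell by 0.32 on the log2 scale (SE 0.094, edgeR adjusted p = 0.031). The call depended on the pairs: without pair 1 the adjusted p was 0.097 and without pair 2 it was 0.17, while without pair 3 it was 0.011. Exons of Ccne2 share 609 bases with Ints8 on the other strand, which had 9722 to 12775 counts and a log2 fold change of 0.05 (edgeR adjusted p = 0.93). Ints8 had up to 188.8% of the Ccne2 counts in the same library. As for Ccnd1 and LTO1, the split of reads between these genes is uncertain. The same limit falls on the ratio and the share of the E cyclins given next.

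The balance of the E cyclins was where the groups stood farthest apart. For the log2 ratio of Ccne1 to Ccne2 counts, which needs no scaling between libraries, untreated replicates 1, 2 and 3 had -0.97, -0.81 and -0.59 and the doxycycline replicates had -0.05, 0.29 and 0.59. No library of 1 group reached the range of the other. The mean difference was 1.07, and 0.93, 1.10 and 1.18 within the pairs. The exact two-sided permutation test gave p = 0.10, the smallest that 3 against 3 libraries allow, and 0.40 adjusted over the 4 ratios tested. Per kb, Ccne1 made up 46.5% ± 3.26 of the E cyclin level in untreated cells and 64.4% ± 5.01 with doxycycline (SD, n = 3 each). The summed level of both was 63.7 ± 13.4 and 77.9 ± 20.8 CPM per kb, with overlapping groups (SD, n = 3 each).

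**Figure D2:**
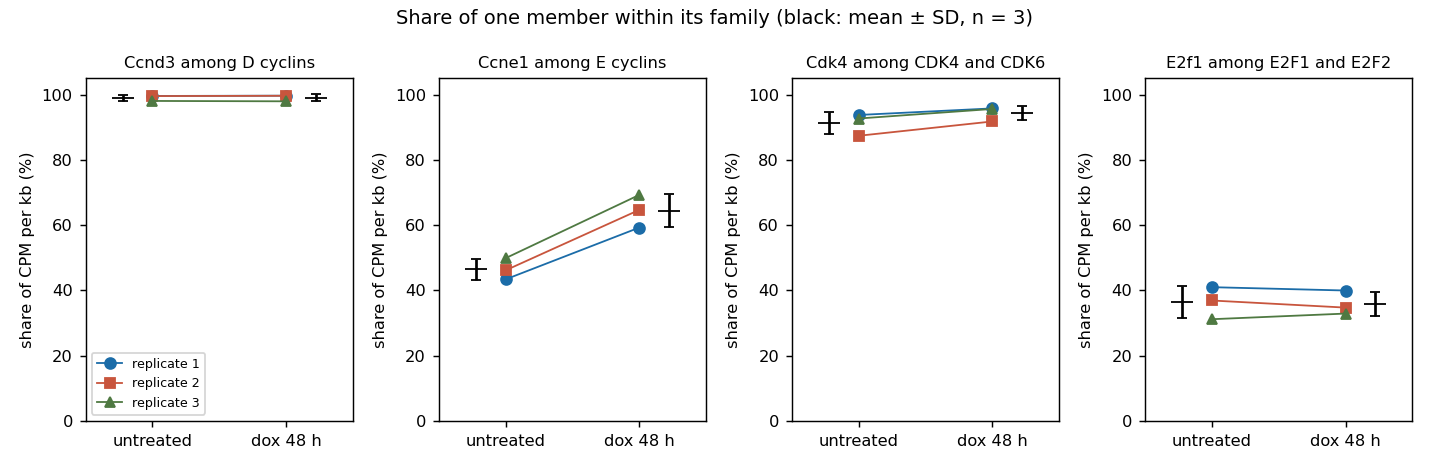
Share (%, y axes from 0) of Ccnd3, Ccne1, Cdk4 and E2f1 in the summed CPM per kb of its family, by library, with lines joining equal replicate numbers and black marks for mean and SD of 3 libraries. The share of Ccne1 lies between 43.4% and 49.9% in untreated libraries and between 59.3% and 69.3% with doxycycline.

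The partner kinases also differed from each other. Cdk6 (chromosome 5, 3341485 to 3531008, plus strand, ENSMUSG00000040274.11), a D cyclin kinase known for holding back erythroid maturation, stood at 191, 315 and 221 CPM in untreated replicates 1, 2 and 3 and at 136, 236 and 169.9 CPM with doxycycline. Replicate 2 was the highest in both groups and the groups overlapped. The log2 fold change of -0.42 did not pass (SE 0.26, interval -1.03 to 0.18, edgeR adjusted p = 0.53). With the block Cdk6 fell by 0.43 on the log2 scale (SE 0.083, edgeR adjusted p = 0.0041), and the pairs gave -0.50, -0.42 and -0.38. Without pair 1 the adjusted p was 0.10. Gm17590, an antisense gene whose exons share 368 bases with those of Cdk6, had at most 28 counts in any library.

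Cdk4 (chromosome 10, 127063534 to 127067920, plus strand), the other D cyclin kinase, stood at 515, 390 and 500.0 CPM in untreated replicates 1, 2 and 3 and at 553, 472 and 665 CPM with doxycycline. It was higher in each pair, by 0.10, 0.27 and 0.41 on the log2 scale, but the groups overlapped. It passed neither fit (log2 fold change 0.27, SE 0.18, edgeR adjusted p = 0.57; with the block 0.26, SE 0.095, interval 0.05 to 0.47, edgeR adjusted p = 0.068). Its neighbour Tspan31, with 641 shared exon bases, had 5208 to 7816 counts, at most 17.1% of those of Cdk4 in the same library.

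Within the pairs the log2 ratio of Cdk4 to Cdk6 counts went up by 0.60, 0.69 and 0.79. The groups overlapped, at 1.43, 0.31 and 1.18 in untreated replicates 1, 2 and 3 and 2.03, 0.998 and 1.97 with doxycycline (mean difference 0.69, exact permutation p = 0.30, adjusted 0.60). The exact sign-flip test within pairs gave p = 0.25, the smallest that 3 pairs allow, for this ratio and for that of the E cyclins. Per kb, Cdk6 made up 8.69% ± 3.41 of the sum of both kinases in untreated cells and 5.58% ± 2.26 with doxycycline (SD, n = 3 each).

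Cdk2, the partner of the E cyclins, was the steadiest of the 9. The gene (chromosome 10, 128697939 to 128705031, minus strand) stood at 86.4, 75.9 and 85.5 CPM in untreated replicates 1, 2 and 3 and at 83.1, 78.7 and 83.6 CPM with doxycycline, with overlapping groups. The log2 fold change was -0.01, with an interval of -0.31 to 0.28 (SE 0.13, edgeR adjusted p = 0.98) and of -0.20 to 0.18 with the block.

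E2f1 (chromosome 2, 154559407 to 154569892, minus strand), the classical activator of S phase genes, stood at 73.2, 72.7 and 49.9 CPM in untreated replicates 1, 2 and 3 and at 76.3, 83.4 and 58.1 CPM with doxycycline. E2f2 (chromosome 4, 136172394 to 136196057, plus strand) stood at 183, 216 and 191 CPM in untreated replicates 1, 2 and 3 and at 199, 272 and 206 CPM with doxycycline. Both were higher in each pair, and in both the groups overlapped. Neither passed: the log2 fold changes were 0.15 (SE 0.21, interval -0.34 to 0.65) for E2f1 and 0.20 (SE 0.16, interval -0.18 to 0.58) for E2f2, with edgeR adjusted p of 0.82 and 0.66, and of 0.21 and 0.15 with the block. Their log2 count ratio was -1.61 ± 0.311 untreated and -1.64 ± 0.229 with doxycycline (SD, n = 3 each; exact permutation p = 0.90, adjusted 0.90). That of Ccnd1 to Ccnd3 was -6.42 ± 1.34 and -6.63 ± 1.60 (SD, n = 3 each; exact permutation p = 0.60, adjusted 0.80).

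**Figure D3:**
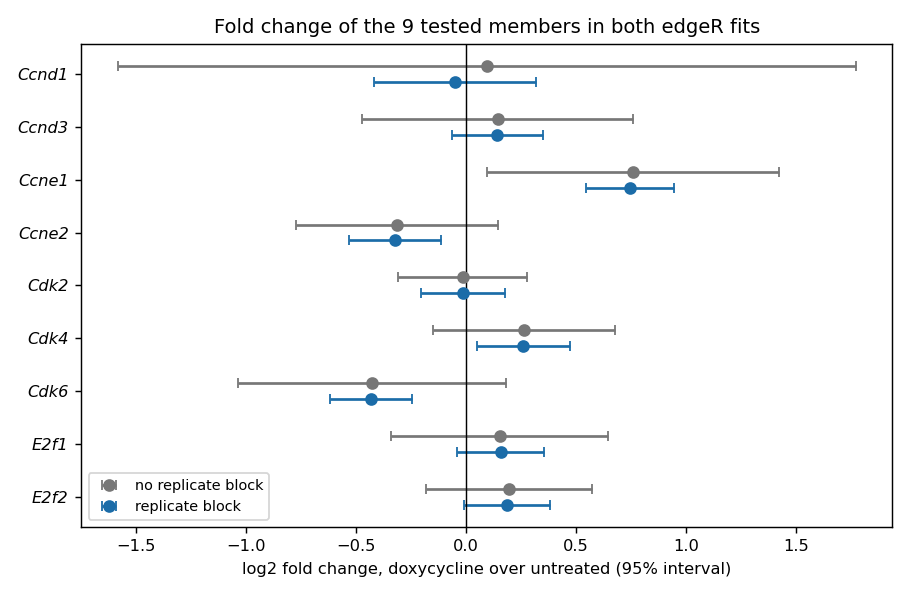
Log2 fold change of the 9 tested members (x axis) with 95% intervals, from edgeR without (grey) and with (blue) the replicate number as a block. With the block the intervals of Ccne1, Ccne2, Cdk6 and Cdk4 lie off 0, of which the first 3 passed adjustment over all genes.

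Counted over the list, 0 of 9 tested members passed edgeR's quasi-likelihood test at an adjusted p under 0.05, where 2.59% of the 14158 genes tested did (0.417% higher and 2.18% lower). At an unadjusted p under 0.05 there was 1, Ccne1, and DESeq2 called 0. With the replicate block 3 of 9 passed, 1 higher and 2 lower, beside 25.8% of all genes tested (10.3% higher and 15.6% lower), so the share of members called was near that of all genes. DESeq2 with the block also called 3, the same genes, beside 24% of all (10.1% higher and 13.9% lower). All 3 pairs moved one way for 6 of the 9, 4 up and 2 down, where 57.4% of all genes did so (28% up and 29.4% down). For none of the 9 were the groups free of overlap, beside 20.6% of all genes (8.88% higher and 11.7% lower). The median log2 fold change of the members was 0.15 and that of all genes 0.01.

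The members also differed between the replicate numbers. With the block, 8 of 9 differed between the numbers (edgeR adjusted p under 0.05), all but Cdk2, beside 43.3% of all genes. The span between the highest and lowest number, each the mean of its untreated and doxycycline libraries, was larger than the change with doxycycline in all 9. A range over 3 numbers is wider by construction than a difference between 2 groups, so these are given side by side without a test. It was 4.11-fold for Ccnd1, 1.71-fold for Ccnd3, 1.70-fold for Cdk6, 1.69-fold for Ccne1 and 1.10-fold for Cdk2. For Ccne1 it was 0.755 on the log2 scale against a change of 0.746.

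The members did not follow the numbers alike. Ccnd1, Ccne1, Ccne2 and Cdk4 were highest in number 3, and Ccnd3, Cdk6, E2f1 and E2f2 in number 2. Ccnd3 and E2f1 were lowest in number 3. Of the 12 erythroid markers, 8 differed between the numbers as well, and not all in the same way. The globin gene Hba-a1 stood at 80.2, 94.6 and 266 CPM in untreated replicates 1, 2 and 3 and at 93.5, 122 and 404 CPM with doxycycline. The anion exchanger gene Slc4a1 stood at 14.4, 39.9 and 100.02 CPM and at 29.6, 96.0 and 224 CPM. These were chosen after their values were seen, as markers highest in number 3. The globin gene Hbb-bs was highest in number 1, at 1342, 766 and 922 CPM in untreated replicates 1, 2 and 3 and at 892, 579 and 855 CPM with doxycycline. Gata1 and Tal1 did not pass the test between numbers (edgeR adjusted p with the block 0.16 and 0.95). The part of these markers in the differences between numbers was not tested.

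**Figure D4:**
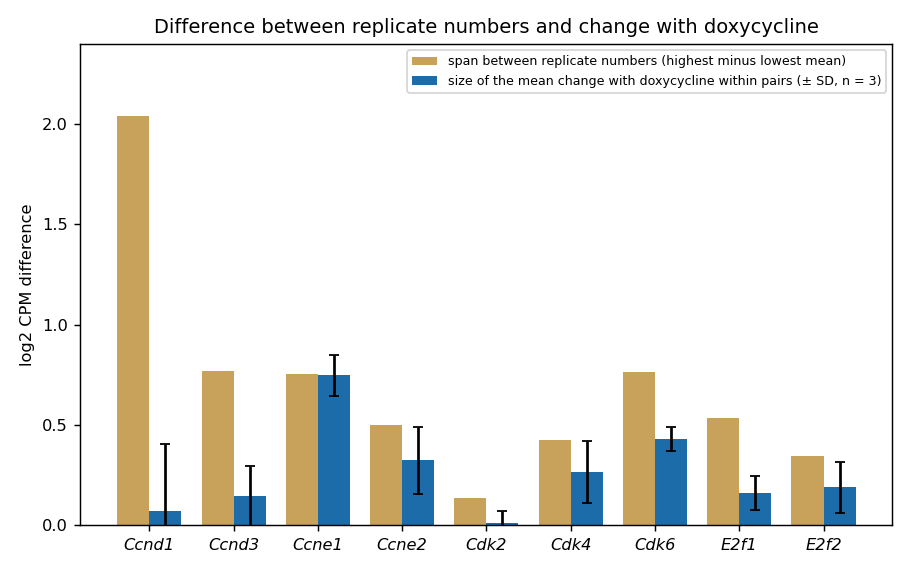
Bars give, for the 9 tested members, the log2 span between the highest and the lowest replicate number (brown) and the size of the mean change with doxycycline within pairs (blue, SD over 3 pairs), on an axis from 0. The brown bar is the taller for each gene, by the widest gap for Ccnd1 and the narrowest for Ccne1.

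The other genes of the pathway were read from lists by role. Those named below as called with the block had edgeR adjusted p between 0.15 and 0.48 without it. What is said of these genes therefore holds within pairs. Of those named as called with the block, Cdkn2c, Mybl2, E2f6 and Cdc6 had groups free of overlap, and the others did not. Because these genes were picked by their adjusted p, this cannot be set against the 20.6% of all genes. Among 10 CDK inhibitors and retinoblastoma genes none passed without the block (2 at an unadjusted p under 0.05, and 0 by DESeq2), and 3 rose and 2 fell with it, beside 10.3% of all genes higher and 15.6% lower. None of these 5 calls held without pair 1, where the block fit had 0 higher and 0 lower. Cdkn2b, which encodes p15, an inhibitor of CDK4 and CDK6, had 12.6 ± 5.50 and 7.17 ± 2.60 CPM (SD, n = 3 each) and fell by 0.79 on the log2 scale with the block (edgeR adjusted p = 0.0011). Cdkn2d, its relative p19, fell by 0.52 from 18.7 ± 6.22 to 12.8 ± 3.28 CPM, while Cdkn2c, p18, rose by 0.40 from 52.2 ± 4.19 to 69.1 ± 5.93 CPM (SD, n = 3 each; edgeR adjusted p with the block 0.0075 and 0.0072). These members of the INK4 family, picked by their adjusted p, thus went in both directions within pairs. Cdkn2a, the most abundant gene of the family here, had 263 ± 84.0 and 229 ± 63.9 CPM (SD, n = 3 each). It was called neither without the block (edgeR adjusted p = 0.83) nor with it (log2 fold change -0.19, edgeR adjusted p = 0.19). Its pairs gave -0.35, 0.06 and -0.28.

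Among 35 tested genes of other cyclins and kinases, E2F relatives, the DREAM complex and cyclin turnover, none passed without the block (3 at an unadjusted p under 0.05, 0 by DESeq2), and with it 3 rose and 4 fell, beside 25.8% of all genes called. Without pair 1 there were 1 higher and 0 lower, without pair 2 there were 4 and 4, and without pair 3 there were 5 and 2. Mybl2, the MYB relative that binds DREAM subunits at mitotic genes, had 123 ± 6.66 and 82.6 ± 16.3 CPM (SD, n = 3 each) and fell by 0.59 with the block (edgeR adjusted p = 0.0021). E2f5, an E2F that acts with the pocket proteins in repression, fell by 0.54 from 11.3 ± 2.24 to 7.81 ± 1.72 CPM, and E2f6, a repressor that needs no pocket protein, rose by 0.40 from 45.0 ± 3.89 to 59.6 ± 4.30 CPM (SD, n = 3 each; edgeR adjusted p with the block 0.0079 and 0.0081). The median log2 fold change of this list was 0.09.

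Among 35 tested E2F target genes of the G1/S transition none passed without the block (6 at an unadjusted p under 0.05, all higher, and 0 by DESeq2). With the block 9 rose and none fell, beside 10.3% of all genes higher and 15.6% lower. Dut, which clears dUTP, rose by 0.46 from 287 ± 51.0 to 396 ± 90.4 CPM (SD, n = 3 each; edgeR adjusted p with the block 0.0034). Gins1, a subunit of the replicative helicase, rose by 0.47 from 29.6 ± 5.73 to 40.6 ± 5.71 CPM, and Cdc6, which loads that helicase onto origins, by 0.41 from 117 ± 12.4 to 156 ± 26.2 CPM (SD, n = 3 each; edgeR adjusted p with the block 0.0056 and 0.0057). The number of calls depended on the pairs: it was 1 higher without pair 1, 6 without pair 2 and 11 without pair 3, with 0, 1 and 1 lower. The median log2 fold change of the list was 0.15, the same to 2 decimals as that of the 9 members. That of the CDK inhibitors and retinoblastoma genes was 0.15 as well, so the match was not particular to the E2F targets.

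Markers of other states moved with the treatment beside these values. The summed level of the 12 erythroid markers lay between 5620 and 6638 CPM in untreated libraries and between 7590 and 9839 CPM with doxycycline. Tfrc (mean 2101 to 3099 CPM) and Car2 (1654 to 3034 CPM) had the largest rises in mean level. Hbb-bs went down from 1010 to 776 CPM, and Gata1 stood at 274 and 268 CPM. Of the 12, 1, Car2, rose without the block, beside 0.417% of all genes higher. With it 8 rose and 1, Hbb-bs, fell, beside 10.3% of all genes higher and 15.6% lower. The summed level of 7 monocyte and macrophage markers, among which PU.1 targets stand, lay between 6.13 and 12.4 CPM untreated and between 1.38 and 2.97 CPM with doxycycline. Of the 5 tested, 1, Fcgr1, fell without the block, beside 2.18% of all genes lower, and 4 fell with it, beside 15.6%. Counts were low, at 4 to 36 for Cd14, 19 to 74 for Csf1r and 6 to 125 for Fcgr1. They reached at most 212 for Cd68 and 605 for Lyz2. The part of the erythroid and macrophage markers in the changes of Ccne1, Ccne2 and Cdk6 was not tested.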

How the data were processed

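Poly(A) RNA was sequenced after Illumina TruSeq RNA v2 preparation, per the labels' protocols. The authors deposited 1 table of raw counts per gene symbol for 6 libraries, 3 per group. Named in the submitters' processing notes, without roles, are STAR, DESeq2, bcl2fastq 2.17.1.14 and the builds mm10 and GRCm38. The sources used here do not give the counter or its strand setting. No column holds a value under 1, which looks like 1 added throughout.

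The members and lists were chosen with earlier results of these data known. Counts were tested with edgeR 4.0.16 (limma 3.58.1, R 4.3.3): TMM, filterByExpr (14158 genes), quasi-likelihood F test, two-sided, Benjamini-Hochberg over all genes, threshold 0.05. SE is the size of the log2 fold change over the square root of F. CPM use TMM-scaled library sizes. A block for the replicate number was fitted as an alternative. Libraries of equal number deviated together from their group means (correlations 0.75, 0.72 and 0.71 for numbers 1, 2 and 3), so the numbers were taken as pairs. Other alternatives were RLE factors, no filter, DESeq2 1.42.0, 1 taken off every count, and leaving out libraries or pairs. The exact permutation tests covered 4 count ratios. The 2 planned ratios with Ccnd2 were not computed because it had at most 4 counts in any library. Named pathway genes were up to 3 per list with the smallest adjusted p, taken from the block fit where none passed without it. Lengths and positions are from GENCODE M21 (GRCm38), promoters from RefSeq (GRCm38.p6). The fits were tested on simulated counts.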

Additional observations from a re-analysis of the deposited data

How the results depend on the processing

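No member was called under RLE size factors, no filter, DESeq2, 1 taken off every count, or without any single library (0 higher and 0 lower in each). With the replicate block, by edgeR and by DESeq2, 1 member was higher and 2 lower. Without pairs 1, 2 and 3 the block fit called 1 higher in each case and 0, 1 and 2 lower. Over all genes, 59 higher and 308 lower calls became 1452 and 2206 with the replicate block, 291 and 722 by DESeq2, and 1436 and 1966 by DESeq2 with the block. They ranged from 0 to 26 higher and from 35 to 242 lower without a single library, and for the block fit without pairs 1, 2 and 3 they were 368, 1310 and 2071 higher and 880, 2119 and 2677 lower. The block changed the call of no member other than Ccne1, Ccne2 and Cdk6. The sign of 4 uncalled members depended on the setting: Ccnd1 was -0.049 with the replicate block, -0.030 by DESeq2 with the block, -0.027 and -0.23 in the block fit without pairs 2 and 3, and between -0.98 and 0.85 without a single library; Cdk2 was 0.0065 with RLE factors, 0.0064 by DESeq2, 0.0084 by DESeq2 with the block, 0.026 in the block fit without pair 1, and between -0.074 and 0.041 without a single library. Without a single library Ccnd3 ranged from -0.067 to 0.34, E2f1 from -0.0072 to 0.30, the Ccnd1 to Ccnd3 ratio from -1.14 to 0.56 and the E2f1 to E2f2 ratio from -0.19 to 0.12, while the Ccne1 to Ccne2 ratio stayed between 0.91 and 1.23 and that of Cdk4 to Cdk6 between 0.36 and 1.03. The cause was not tested. The D cyclins other than Ccnd3 had low counts: Ccnd2 had at most 4 and Ccnd1 as few as 164. The union of exons as the length, chosen after the data were seen, gave Ccnd3 97.2% of the D cyclin level in both groups and Ccne1 43.1% of the E cyclin level untreated and 61.3% with doxycycline.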
